A study of Mus musculus with 18 samples.

Results

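Stem cell factor (SCF, the product of Kitl, written Scf in the allele names) was removed from stromal cells of the mouse, and the question was whether the response of erythroid progenitors differed between PreCFU-E and CFU-E. PreCFU-E are progenitors committed to the red cell lineage, and CFU-E are their descendants, which form small erythroid colonies. For each gene the PreCFU-E to CFU-E step of mice labelled Scf KO/FL;Lepr-Cre was set against that of mice labelled Scf FL/FL. The step is the log2 fold change of CFU-E over PreCFU-E within a mouse. The difference of steps is the Lepr-Cre step minus the FL/FL step, and it equals the genotype difference in CFU-E minus the genotype difference in PreCFU-E. It used 12 of the 18 libraries of the study and was fitted over all 10473 genes that passed a filter on low counts.

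Scf FL/FL mice carried floxed copies alone. Scf KO/FL;Lepr-Cre mice, called Lepr-Cre mice here, carried a null copy over a floxed copy, with Cre driven by the leptin receptor gene, which is active in perivascular stromal cells of the marrow. Scf KO/FL mice carried the null and the floxed copy without Cre. There were 3 mice per genotype, A, B and C, and each gave both cell types, the B mouse of every genotype being female and its other two mice male. The contrast with FL/FL mice joins the null allele with the Cre deletion, so KO/FL mice are given beside it. The age of the mice, and the share of stromal cells in which Cre cut the floxed copy, were not found in the labels. The sources record 5000 to 10000 cells per sort and 2 to 6 ng of RNA per library. The cells had been enriched on c-Kit, and the sort used Sca1, CD150, CD105, CD41 and CD16/32 beside a lineage panel.

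SCF is the ligand of the receptor tyrosine kinase KIT. In the marrow it is presented by stromal and endothelial cells, and KIT on early erythroid progenitors passes the signal through PI3 kinase and the RAS-ERK cascade. Erythroid progenitors need KIT before they come to need erythropoietin, and KIT is lost as they mature. Along the same path they switch on the spectrin membrane skeleton, haem synthesis and iron uptake.

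Library totals lay between 5460920 and 9389122 counts in the 12 libraries. Kitl had 0 counts in all 12, so the targeted gene gives no check of the genotype in these cells, and it was not tested. Kit (chromosome 5, 75574916 to 75656722 of GRCm38, + strand) was at 846, 836 and 734 CPM in FL/FL and 489, 437 and 379 CPM in Lepr-Cre PreCFU-E, where CPM is the count scaled by library total and TMM factor. In CFU-E it was at 471, 362 and 403 CPM in FL/FL and 299, 228 and 210.4 CPM in Lepr-Cre mice. In each stage the Lepr-Cre libraries lay below all FL/FL libraries. The genotype difference of Kit was -0.89 in PreCFU-E (adjusted p = 0.000121) and -0.74 in CFU-E (adjusted p = 0.00104), on the log2 scale. Its difference of steps was 0.14 (SE 0.12, adjusted p = 0.743), so Kit was lower in Lepr-Cre mice at both stages and a dependence on stage was not detected.

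A difference of steps was found in 205 genes, 1.96% of those tested (edgeR quasi-likelihood test with mouse as block, two-sided, Benjamini-Hochberg adjusted p below 0.05). It was positive in 55 genes (0.525%) and negative in 150 (1.43%), and 101 of the 205 differed by more than 2-fold. The median difference over all tested genes was -0.03. The steps of the 3 Lepr-Cre mice did not overlap those of the 3 FL/FL mice in 198 of the 205 genes, against 1650 of all tested genes (15.8%), wholly above in 6.78% and wholly below in 8.98%. The count was 81 without FL/FL mouse B and 47 without the mouse block. With limma on the deposited RPKM it was 1 or 12 for the 2 offsets tried.

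Most of the 205 were genes that changed along the step in FL/FL mice and had a smaller step in Lepr-Cre mice. Of the 150 with a negative difference, 144 had a positive step in FL/FL mice, with a median of 1.29 against 0.50 in Lepr-Cre mice. All 55 with a positive difference had a negative step in FL/FL mice, with a median of -2.44 against -0.92. The Lepr-Cre step was the smaller in size in 137 of the 150 and in all 55, against 60.7% of all tested genes. The 205 were chosen on the difference between these same steps, so these counts are a description of the called genes. Since the difference is made from the FL/FL step, its sign and the sign of that step are not independent. Steps of opposite sign in the 2 genotypes were seen in 26 of the 150 genes and 2 of the 55.

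Placed by stage, the larger part of the genotype difference lay in PreCFU-E for 87 of the 150 negative genes and in CFU-E for 46, while 17 had opposed differences at the 2 stages. For the 55 positive genes these numbers were 13, 25 and 17. In 64 of the 150 the level was higher in Lepr-Cre than FL/FL PreCFU-E past the test with no call in CFU-E, and in 31 it was lower in CFU-E with no call in PreCFU-E. In 17 of the 55 it was higher in Lepr-Cre CFU-E with no call in PreCFU-E, and in 10 it was lower in PreCFU-E with no call in CFU-E. These genotype differences were fitted without a block. A block by letter, with separate terms for B and C, matches the mice of the genotypes by letter. Each B mouse was female, but A and C were set apart too, so it is no adjustment for sex alone. With it the 4 counts were 66, 38, 28 and 16. The genes that differed rose from 561 to 1055 in PreCFU-E and from 520 to 1121 in CFU-E, so the absence of a call at a stage depends on the fit. Without that block, over all tested genes the genotypes differed in 5.36% in PreCFU-E, 3.01% higher and 2.35% lower, and in 4.97% in CFU-E, 2.13% higher and 2.84% lower. The plot of the genotype difference at the 2 stages shows these classes as distances from the diagonal.

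**Figure D1:**
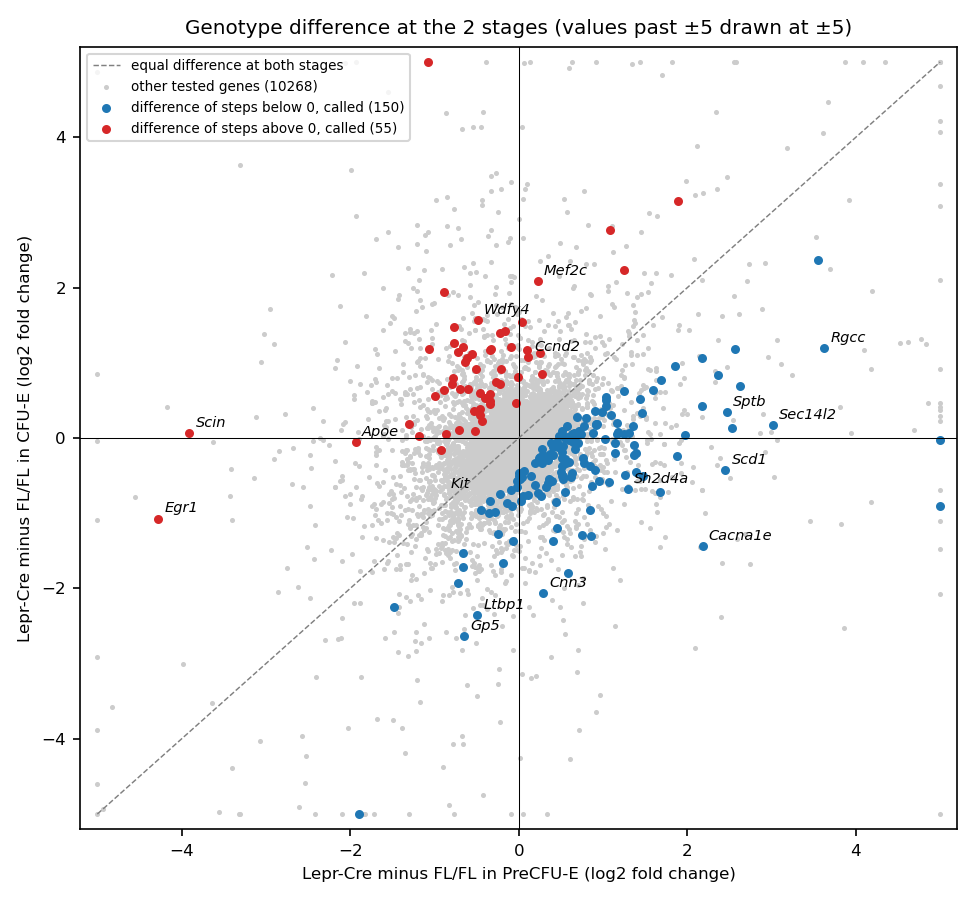
Genotype difference (Lepr-Cre minus FL/FL, log2 fold change) of each tested gene in PreCFU-E, horizontal, and CFU-E, vertical, with values past ±5 drawn at ±5. The 150 genes with a negative difference of steps (blue) lie below the diagonal of equal difference, and the 55 with a positive one (red) lie above it. Apoe lies left of 0 and level with it, while Mef2c and Cnn3 lie above and below 0 near the vertical axis.

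The red cell membrane skeleton held the smallest p of all genes. Sptb encodes beta spectrin, part of the net beneath the red cell membrane (chromosome 12, 76580488 to 76710547 of GRCm38, - strand). Its level was 86.5, 72.2 and 63.4 CPM in FL/FL and 409, 441 and 381 CPM in Lepr-Cre PreCFU-E. In CFU-E it was 786, 874 and 563 CPM in FL/FL and 857, 1135 and 841 CPM in Lepr-Cre mice. Lepr-Cre PreCFU-E were all above FL/FL PreCFU-E, while the CFU-E of the genotypes overlapped. The step was 3.31 in FL/FL and 1.19 in Lepr-Cre mice, a difference of -2.12 (SE 0.12, adjusted p = 2.52e-17).

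Add2, the beta subunit of adducin, which caps actin at the spectrin junctions, was at 236, 228 and 222 CPM in FL/FL and 409, 425 and 427 CPM in Lepr-Cre PreCFU-E. Its CFU-E values, with FL/FL given first here and below, were 547, 558 and 517 CPM and 495, 622 and 581 CPM, overlapping, and its difference of steps was -0.82 (SE 0.11, adjusted p = 3.69e-06). Rhag, the Rh-associated glycoprotein that carries the Rh complex to the surface, was at 109, 82.8 and 81.2 CPM in FL/FL and 211, 189.9 and 185 CPM in Lepr-Cre PreCFU-E. In CFU-E it was at 249, 232 and 205 CPM and 267, 296 and 285 CPM, so levels did not overlap at either stage. Its genotype difference in CFU-E was 0.31 without a block and did not pass (edgeR, adjusted p = 0.141). With the block by letter it passed (adjusted p = 0.0318). The difference of steps of Rhag was -0.80 (SE 0.13, adjusted p = 0.000122).

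Of 25 tested genes of the red cell membrane and surface, 9 passed with a negative difference of steps and 0 with a positive one. The shares over all tested genes were 1.43% and 0.525%. The list median was -0.34 against -0.03 over all tested genes. In PreCFU-E 9 of the 25 were higher in Lepr-Cre mice and 0 lower, against 3.01% and 2.35% of all tested genes. In CFU-E 0 of the 25 were higher and 0 lower, against 2.13% and 2.84%. With the block by letter 11 were higher in PreCFU-E, and 2 were higher and 3 lower in CFU-E. In that fit 622 of all 10473 tested genes were higher in PreCFU-E, and 525 were higher and 596 lower in CFU-E. Others that passed were Ank1, the ankyrin that ties spectrin to the membrane (-0.53), Cldn13 (-1.10), Rhd of the Rh complex (-0.63), Epb42, the protein 4.2 of the ankyrin complex (-1.10), and Slc4a1, the anion exchanger band 3. Slc4a1 had 0 counts in the 3 FL/FL PreCFU-E libraries and 33 in the 3 Lepr-Cre ones, at least 10.4-fold higher when the FL/FL group is set to 3 counts. Ank1, Cldn13, Rhd, Epb42 and Slc4a1 lie outside the rule for named genes and were chosen after their values were seen, and the call of Epb42 was lost with DESeq2 (adjusted p = 0.0874). On leaving out a mouse, 5 to 10 of the list passed, the fewest without FL/FL mouse B, and 5 passed without the mouse block.

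Among haem synthesis genes the calls were fewer and also negative. Cpox, coproporphyrinogen oxidase, was at 407, 432 and 359.6 CPM in FL/FL and 765, 920.1 and 782 CPM in Lepr-Cre PreCFU-E. In CFU-E it was at 679.7, 826 and 702 CPM and 1037, 1101 and 993 CPM. Its Lepr-Cre libraries were above the FL/FL ones at both stages, and the gap was wider in PreCFU-E, with a difference of steps of -0.53 (SE 0.11, adjusted p = 0.0021). Abcb10, a mitochondrial transporter needed for haem synthesis, was at 65.1, 66.6 and 50.8 CPM in FL/FL and 112, 95.5 and 98.4 CPM in Lepr-Cre PreCFU-E. Its CFU-E values, 203, 201 and 169.9 CPM and 189, 177 and 231 CPM, overlapped, and the difference of steps was -0.70 (SE 0.15, adjusted p = 0.00362). Abcb6, a porphyrin transporter, differed by -0.74 (SE 0.19, adjusted p = 0.0208). These were the 3 of 16 tested haem genes that passed, all negative, against 1.96% of all tested genes. The list median was -0.30. The call of Cpox was lost without FL/FL mouse B, with an adjusted p of 0.079. That of Abcb6 was lost without FL/FL mouse A, B or C or Lepr-Cre mouse A or C, with adjusted p of 0.0757, 0.0511, 0.0807, 0.0765 and 0.107. Without the mouse block 0 of the 16 passed.

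Tfrc, the transferrin receptor through which erythroid cells take up iron, was at 527, 435 and 365 CPM in FL/FL and 868, 645 and 623 CPM in Lepr-Cre PreCFU-E. In CFU-E it was at 1026, 1096 and 884 CPM and 1393, 1141 and 1116 CPM. The levels of the genotypes did not overlap at either stage, with the wider gap in PreCFU-E. Without a block 0 of the 14 tested iron genes were called higher in CFU-E. With the block by letter Tfrc passed there (edgeR, adjusted p = 0.0314). The difference of steps of Tfrc was -0.41 (SE 0.11, adjusted p = 0.0386), the single call among the 14, against 1.96% of all tested genes. It was lost without FL/FL mouse B or C or Lepr-Cre mouse A or C, with adjusted p of 0.558, 0.0938, 0.138 and 0.143.

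Among globins and late erythroblast genes 2 of 22 tested passed, both negative, against 1.96% of all tested genes. The list median was -0.21. Without FL/FL mouse C 6 passed, all negative, and without Lepr-Cre mouse B 1 passed with a positive difference beside 2 negative ones. Trim10, an erythroid TRIM protein, was at 2.27, 2.95 and 3.03 CPM in FL/FL and 9.02, 8.04 and 15.1 CPM in Lepr-Cre PreCFU-E. In CFU-E it was at 52.4, 44.8 and 49.1 CPM and 38.04, 51.1 and 61.2 CPM. Each Lepr-Cre PreCFU-E library exceeded each FL/FL one, CFU-E overlapped, and the difference of steps was -1.91 (SE 0.35, adjusted p = 0.000423). Prdx2, an abundant peroxidase of red cells, was at 181, 183 and 273 CPM in FL/FL and 272, 302 and 392 CPM in Lepr-Cre PreCFU-E. Its CFU-E values, 408, 465 and 579 CPM and 411, 472 and 549 CPM, and its PreCFU-E values overlapped between genotypes, while the steps within mice did not, and the difference was -0.63 (SE 0.12, adjusted p = 0.000526).

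Of 19 tested erythroid transcription factors 1 passed, Sox6, against 1.96% of all tested genes. The difference of steps of Sox6 was -0.97 (SE 0.25, adjusted p = 0.0278), and the list median was 0.04. Without Lepr-Cre mouse B another gene of the list passed, with a positive difference. Sox6, which takes part in globin repression and erythroid maturation, was at 8.25, 13.1 and 11.3 CPM in FL/FL and 28.4, 39.4 and 36.4 CPM in Lepr-Cre PreCFU-E. In CFU-E it was at 68.2, 100.3 and 55.1 CPM and 64.2, 153 and 166 CPM, and its call was lost with DESeq2 and without FL/FL mouse A or B or Lepr-Cre mouse A, with adjusted p of 0.189, 0.244 and 0.192. Gata1, the master erythroid factor, had a difference of 0.11 with an SE of 0.13, and Klf1, which drives membrane and haem genes, one of -0.05 with an SE of 0.12. Those 2 factors were chosen after their values were seen.

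In the KIT list 2 of 33 tested genes passed, in opposite directions, while 1.96% of all tested genes passed. Gab1, a docking adaptor that links receptors to PI3 kinase and SHP2, was at 30.8, 33.2 and 33.7 CPM in FL/FL and 86.3, 75.8 and 87.2 CPM in Lepr-Cre PreCFU-E. In CFU-E it was at 106, 125 and 82.9 CPM and 99.3, 113 and 138 CPM. It was separated in PreCFU-E alone, with a difference of steps of -1.18 (SE 0.19, adjusted p = 8.82e-05). Pik3cd, the delta catalytic subunit of PI3 kinase, was at 90.1, 87.1 and 84.6 CPM in FL/FL and 119, 108 and 86.6 CPM in Lepr-Cre PreCFU-E. Its CFU-E values were 18.7, 24.3 and 25.1 CPM and 63.8, 49.2 and 37.00 CPM, with the Lepr-Cre libraries higher and PreCFU-E overlapping. Its difference of steps was 0.86 (SE 0.21, adjusted p = 0.0174), lost without FL/FL mouse A or B or Lepr-Cre mouse A, with adjusted p of 0.141, 0.0618 and 0.102. The list median was 0.14.

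Of 16 tested ERK feedback and immediate-early genes, 9 were lower in Lepr-Cre mice in PreCFU-E and 7 in CFU-E, with 0 higher at either stage, while 2.35% and 2.84% of all tested genes were lower. With the block by letter 1 was higher in CFU-E and the lower ones again numbered 9 and 7. In that fit 433 of all 10473 tested genes were lower in PreCFU-E, and 525 were higher and 596 lower in CFU-E. A difference of steps passed for Egr1, an immediate-early transcription factor, at 2.95 (SE 0.67, adjusted p = 0.00791). Egr1 was the single call of the list, against 1.96% of all tested genes. Its level was 20.4, 60.1 and 12.8 CPM in FL/FL and 2.19, 1.45 and 1.15 CPM in Lepr-Cre PreCFU-E. In CFU-E it was 1.61, 5.85 and 2.58 CPM in FL/FL and 2.94, 0.599 and 1.17 CPM in Lepr-Cre mice, so the genotypes were separated in PreCFU-E and overlapped in CFU-E. The call was lost without FL/FL mouse A or B or Lepr-Cre mouse A, with adjusted p of 0.0515, 0.428 and 0.108. The list median was 0.66, and 13 of the 16 differences were positive, against 46.2% of those of all tested genes. Of 14 tested erythropoietin and STAT5 target genes, 0 passed by edgeR or DESeq2. By edgeR 2 of the 14 had an unadjusted p below 0.05, against 1130 of all 10473 tested genes. In Lepr-Cre PreCFU-E 5 were higher and 2 lower, and in CFU-E 7 were higher and 1 lower. Without a block 3.01% of all tested genes were higher and 2.35% lower in PreCFU-E, with 2.13% and 2.84% in CFU-E. With the block by letter 3 were lower in PreCFU-E and 2 in CFU-E, against 433 and 596 of all 10473 tested genes. The higher ones were again 5 and 7, against 622 and 525. Without FL/FL mouse C 1 of the 14 had a difference of steps.

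In the cell cycle lists the 2 cyclins that passed moved in opposite directions. They were the only calls among 17 tested G1 cyclins and CDK inhibitors, against 1.96% of all tested genes. Ccnd2, the D-type cyclin D2 that couples growth factors to cell cycle entry, was at 301, 419 and 315 CPM in FL/FL and 344, 414 and 356 CPM in Lepr-Cre PreCFU-E. In CFU-E it was at 123, 135 and 109 CPM in FL/FL and 297, 241 and 237 CPM in Lepr-Cre mice. PreCFU-E overlapped, and every Lepr-Cre CFU-E library lay above every FL/FL one. Its step was -1.49 in FL/FL and -0.53 in Lepr-Cre mice, a difference of 0.96 (SE 0.13, adjusted p = 4.45e-06).

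Ccne1, cyclin E1 of the entry into S phase, was at 76.9, 71.6 and 74.9 CPM in FL/FL and 164, 151 and 142 CPM in Lepr-Cre PreCFU-E. In CFU-E it was at 207, 235 and 209 CPM and 299, 272 and 307 CPM. It was separated by genotype at both stages with the wider gap in PreCFU-E, and its difference of steps was -0.60 (SE 0.14, adjusted p = 0.0076), lost without FL/FL mouse B, with an adjusted p of 0.179. Rrm2, the regulated subunit of ribonucleotide reductase, was at 122, 121 and 111 CPM in FL/FL and 228, 231 and 269 CPM in Lepr-Cre PreCFU-E. Its CFU-E values were 265, 321 and 322 CPM and 414, 435 and 474 CPM, and its difference of -0.49 (SE 0.12, adjusted p = 0.0218) was lost without FL/FL mouse B or C or Lepr-Cre mouse C, with adjusted p of 0.231, 0.122 and 0.13. Rrm2 was the single call among 29 tested S-phase genes, against 1.96% of all tested genes. The median of the 29 was -0.12. Of 30 tested mitosis genes 0 passed by edgeR or DESeq2. By edgeR 4 of the 30 had an unadjusted p below 0.05, against 1130 of all 10473 tested genes. The median of the 30 was -0.14, and 23 of the 30 differences were negative, against 53.8% of those of all tested genes.

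Of 27 tested actin and adhesion genes 5 passed, 4 with a negative difference and 1 with a positive one, against 1.43% and 0.525% of all tested genes. The list median was 0.11, and 16 of the 27 differences were positive, so median and calls differ in sign. Without FL/FL mouse B or Lepr-Cre mouse A 2 passed, and without the mouse block 1. Myh10, the heavy chain of non-muscle myosin IIB, was at 610.4, 753 and 537 CPM in FL/FL and 929, 1182 and 896 CPM in Lepr-Cre PreCFU-E. In CFU-E it was at 883, 1063 and 752 CPM and 818, 912 and 707 CPM. Its step was 0.51 in FL/FL and -0.30 in Lepr-Cre mice, opposite in sign, and both steps passed the test. Their difference was -0.81 (SE 0.11, adjusted p = 1.56e-06). Lmna, which encodes lamins A and C of the nuclear envelope, was at 83.6, 76.8 and 77.3 CPM in FL/FL and 187, 176 and 172 CPM in Lepr-Cre PreCFU-E. Its CFU-E values, 244, 347 and 334 CPM and 300.1, 314 and 347 CPM, overlapped, and its difference was -1.10 (SE 0.14, adjusted p = 2.40e-06).

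The other 3 calls of the actin list were each lost on leaving out a mouse. Cd82, a tetraspanin, had a difference of -0.62 (SE 0.16, adjusted p = 0.0208), lost with DESeq2 and without FL/FL mouse B or Lepr-Cre mouse A, with adjusted p of 0.319 and 0.161. Vcl, vinculin of adhesion sites, had -0.49 (SE 0.13, adjusted p = 0.0249), lost without FL/FL mouse A or B or Lepr-Cre mouse A or B, with adjusted p of 0.0577, 0.285, 0.054 and 0.128. Scin, scinderin, which severs actin filaments, had 3.92 (SE 1.02, adjusted p = 0.0278), lost without FL/FL mouse B or C or Lepr-Cre mouse A or C, with adjusted p of 0.255, 0.0986, 0.186 and 0.16. Its level was 24.9, 31.7 and 35.4 CPM in FL/FL and 3.69, 0.558 and 1.92 CPM in Lepr-Cre PreCFU-E, and it was under 1.5 CPM in all 6 CFU-E libraries.

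Apoe had the smallest p among genes with a positive difference. It encodes apolipoprotein E, a lipid carrier (chromosome 7, 19696109 to 19699188 of GRCm38, - strand). Its level was 305, 406 and 364 CPM in FL/FL and 76.8, 102 and 102 CPM in Lepr-Cre PreCFU-E. In CFU-E it was 19.9, 19.6 and 27.2 CPM and 21.8, 23.98 and 18.9 CPM. FL/FL PreCFU-E lay above all other libraries, and the CFU-E of the genotypes overlapped. The step was -4.01 in FL/FL and -2.11 in Lepr-Cre mice, a difference of 1.91 (SE 0.18, adjusted p = 1.11e-09). Macrophages also make Apoe. The summed level of 14 island macrophage genes, without TMM scaling, lay at 322 to 414 CPM in FL/FL and 80.4 to 113 CPM in Lepr-Cre PreCFU-E. In CFU-E it was 24.5 to 31.5 and 24.4 to 27.8 CPM. Apoe is itself 1 of the 14 and makes up most of that sum in PreCFU-E. The sum thus largely repeats the level of Apoe and is no separate measure of macrophages. Apoe led it in each group, C1qc was at 0 in all 12 libraries, and 2 of the 14 had enough counts to be tested. The part of such cells in the level of Apoe was not tested.

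Other genes that fell along the step in FL/FL mice fell less in Lepr-Cre mice. Mef2c, a MADS-box transcription factor of several blood lineages, was at 59.3, 48.9 and 49.8 CPM in FL/FL and 67.96, 60.4 and 56.7 CPM in Lepr-Cre PreCFU-E. In CFU-E it was at 8.25, 6.55 and 4.10 CPM and 31.1, 24.7 and 23.3 CPM, separated there and overlapping in PreCFU-E, with a difference of steps of 1.87 (SE 0.28, adjusted p = 2.48e-05). Wdfy4, a BEACH-domain protein of vesicle traffic, was at 99.2, 101 and 104 CPM in FL/FL and 78.4, 79.9 and 58.7 CPM in Lepr-Cre PreCFU-E. In CFU-E it was at 8.43, 4.91 and 7.39 CPM and 30.03, 17.4 and 12.96 CPM, with a difference of 2.0 (SE 0.27, adjusted p = 2.77e-06). Igfbp4, an insulin-like growth factor binding protein, went from 67.2, 56.4 and 52.8 to 11.1, 3.39 and 6.92 CPM in FL/FL mice. In Lepr-Cre mice it went from 32.1, 17.1 and 35.4 to 23.2, 6.59 and 17.5 CPM, and the difference was 2.22 (SE 0.35, adjusted p = 4.91e-05). Its genotype difference passed the test at neither stage without a block, with adjusted p of 0.205 and 0.192, and at both with the block by letter, with adjusted p of 0.00181 and 0.00611.

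Coro1a, Lcp1 and Plac8 also had a positive difference, and they were not tested as a group. The lists for neutrophils and monocytes, for B, T and NK cells and for mast cells, basophils and eosinophils held 7 tested genes in all, with 0 calls by edgeR or DESeq2. By edgeR 0 of the 7 had an unadjusted p below 0.05, against 1130 of all 10473 tested genes. Coro1a, coronin 1A of the leukocyte actin cortex, had 1 count in the 3 FL/FL CFU-E libraries against 89 in the 3 Lepr-Cre ones. That is a ratio of 89.9 with an exact binomial interval at 95% of 15.7 to 3590.0, which covers counting error only. In PreCFU-E it was at 7.63, 15.3 and 14.9 CPM in FL/FL and 6.15, 6.36 and 5.38 CPM in Lepr-Cre PreCFU-E. Lcp1, L-plastin, had a difference of 1.94 (SE 0.46, adjusted p = 0.0119), lost without FL/FL mouse B or Lepr-Cre mouse A, with adjusted p of 0.148 and 0.166. Plac8 had one of 3.05 (SE 0.65, adjusted p = 0.00332), lost without FL/FL mouse B, with an adjusted p of 0.0751. The summed level of 19 B, T and NK cell genes was 3.76 to 28.1 CPM in Lepr-Cre CFU-E and 0.930 to 4.21 CPM in FL/FL CFU-E. In PreCFU-E it was 1.82 to 7.42 and 4.15 to 8.23 CPM, and Cd3e, Cd3d, Cd8a and Klrb1c were at 0 in all 12 libraries. Dntt, Ebf1 and Lck were the highest of these genes in Lepr-Cre CFU-E, and Ebf1, Lck and Cd3g in FL/FL CFU-E. The median sum in CFU-E was 16.9 CPM in Lepr-Cre and 3.37 CPM in FL/FL mice. The 20 neutrophil and monocyte genes summed to at most 3.41 CPM in any library, with Elane, Ctsg and Itgam at 0. The 16 mast cell, basophil and eosinophil genes summed to 288 to 329.8 and 175 to 196 CPM in FL/FL and Lepr-Cre PreCFU-E and to 189 to 224 and 128 to 129.7 CPM in CFU-E. Of these 16, 7 were at 0 in all 12 libraries, namely Mcpt8, Prss34, Fcer1a, Gzmb, Tpsb2, Cma1 and Prg3. Il1rl1 and Srgn were among the highest in each group. The part of such cells in the levels of Coro1a, Lcp1 and Plac8 was not tested. In bulk libraries, fewer cells of a type and less RNA per cell cannot be told apart.

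Several genes that rise along the step were already up in Lepr-Cre PreCFU-E. Sec14l2, a lipid-binding protein, was at 4.44, 2.65 and 2.75 CPM in FL/FL and 25.2, 13.7 and 42.9 CPM in Lepr-Cre PreCFU-E. In CFU-E it was at 104, 108 and 90.03 CPM and 98.1, 117 and 125 CPM, overlapping, with a difference of steps of -2.75 (SE 0.35, adjusted p = 9.52e-05). Rgcc, a regulator of the cell cycle, was at 1.03, 2.51 and 1.79 CPM in FL/FL and 22.4, 13.7 and 28.1 CPM in Lepr-Cre PreCFU-E. In CFU-E it was at 33.01, 28.5 and 23.1 CPM and 71.1, 47.95 and 74.3 CPM, higher in Lepr-Cre mice at both stages, with -2.41 (SE 0.37, adjusted p = 2.48e-05). Scd1, the stearoyl-CoA desaturase, was at 0, 1.03 and 1.65 CPM in FL/FL and 3.83, 4.80 and 5.25 CPM in Lepr-Cre PreCFU-E. In CFU-E it was at 25.1, 33.6 and 27.8 CPM and 19.7, 21.4 and 23.3 CPM, lower in Lepr-Cre mice without overlap. The genotype difference did not pass there (edgeR without a block, adjusted p = 0.607). The difference of steps of Scd1 was -2.96 (SE 0.60, adjusted p = 0.00288).

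A further group rose in FL/FL mice and rose less, or with no rise past the test, in Lepr-Cre mice. Cnn3, calponin 3, an actin-binding protein, was at 8.46, 7.66 and 8.53 CPM in FL/FL and 12.2, 8.60 and 9.48 CPM in Lepr-Cre PreCFU-E. In CFU-E it was at 49.2, 45.4 and 64.5 CPM in FL/FL and 15.4, 11.5 and 11.1 CPM in Lepr-Cre mice, with a difference of -2.34 (SE 0.36, adjusted p = 2.48e-05). Its CFU-E were separated with no overlap. Sh2d4a, an SH2-domain adaptor, was at 28.98, 13.6 and 16.7 CPM in FL/FL and 58.5, 36.7 and 51.5 CPM in Lepr-Cre PreCFU-E. Its CFU-E values were 151, 123 and 101 CPM and 85.8, 64.9 and 83.03 CPM. Lepr-Cre libraries were thus the higher in PreCFU-E and the lower in CFU-E, and the difference was -2.01 (SE 0.22, adjusted p = 2.25e-08).

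Cacna1e, a voltage-gated calcium channel subunit, had a larger spread, and its genotype difference passed the test at neither stage, with or without the block by letter. Its PreCFU-E values were 1.65, 0.737 and 0.55 CPM in FL/FL and 4.65, 1.45 and 8.20 CPM in Lepr-Cre mice, which overlapped. In CFU-E they were 54.2, 64.4 and 27.8 CPM and 18.8, 12.1 and 22.9 CPM, and the difference of steps was -3.50 (SE 0.50, adjusted p = 5.62e-06). Without the mouse block its adjusted p was 0.0539.

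Plpp1, a phospholipid phosphatase, was at 2.78, 1.62 and 3.17 CPM in FL/FL and 13.3, 5.36 and 6.02 CPM in Lepr-Cre PreCFU-E. In CFU-E it was at 39.8, 49.9 and 36.5 CPM and 24.7, 24.6 and 27.2 CPM. Its Lepr-Cre libraries too were the higher in PreCFU-E and the lower in CFU-E, with a difference of -2.30 (SE 0.43, adjusted p = 0.000693).

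Cdc25b, a phosphatase that activates cyclin-dependent kinases, went from 32.4, 27.4 and 19.8 to 11.7, 7.60 and 5.16 CPM in FL/FL mice and from 17.1, 17.3 and 16.01 to 24.1, 20.5 and 10.9 CPM in Lepr-Cre mice. It fell along the step in FL/FL mice, while the Lepr-Cre step was 0.08, and the difference was 1.83 (SE 0.39, adjusted p = 0.00384). Man2a2, a Golgi mannosidase of N-glycan processing, went from 45.7, 61.2 and 40.6 to 5.92, 5.61 and 5.16 CPM in FL/FL mice. In Lepr-Cre mice it went from 35.96, 27.6 and 25.6 to 15.1, 11.2 and 10.5 CPM, with a difference of 1.85 (SE 0.34, adjusted p = 0.000474).

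Gp5 and Ltbp1 fell along the step in Lepr-Cre mice with no fall past the test in FL/FL mice. Gp5, a platelet glycoprotein of the von Willebrand factor receptor, was at 25.6, 33.6 and 25.6 CPM in FL/FL and 16.1, 17.8 and 20.1 CPM in Lepr-Cre PreCFU-E. In CFU-E it was at 16.5, 21.9 and 16.4 CPM and 1.41, 5.84 and 1.75 CPM. Its difference of steps was -2.11 (SE 0.45, adjusted p = 0.00332). Ltbp1, which binds latent TGF-beta, went from 19.3, 15.7 and 16.1 to 8.48, 2.40 and 1.75 CPM in Lepr-Cre mice, with a difference of -2.0 (SE 0.45, adjusted p = 0.00719), lost without FL/FL mouse A or Lepr-Cre mouse C, with adjusted p of 0.119 and 0.0761. The 17 megakaryocyte genes summed to 122.8 to 158 CPM in FL/FL and 107.3 to 133.1 CPM in Lepr-Cre PreCFU-E. In CFU-E they summed to 65.4 to 73.1 CPM in FL/FL and 56.5 to 80.1 CPM in Lepr-Cre mice. Gp5 and Ltbp1 are not in this list, so its counts leave out the call of Gp5, a platelet gene. Of the 7 list genes tested, 0 had a difference of steps past the test by edgeR or DESeq2. The lowest difference among them was -0.71. By edgeR 1 of the 7 had an unadjusted p below 0.05, and 1 passed without Lepr-Cre mouse C.

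**Figure D2:**
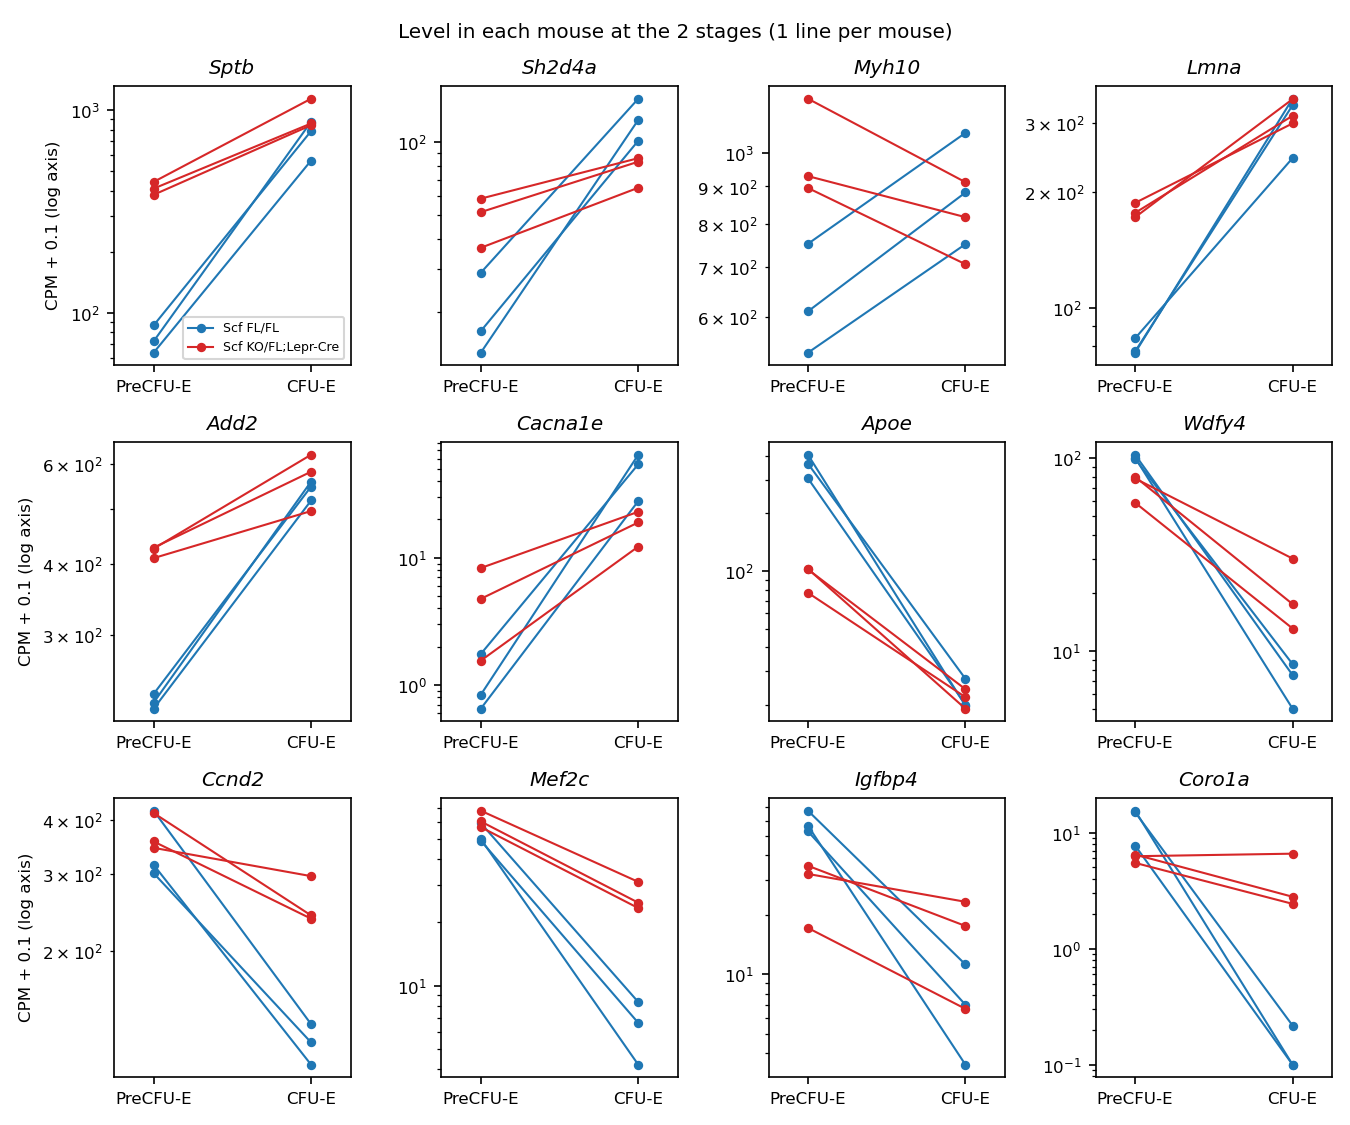
Level in each mouse at PreCFU-E and CFU-E (CPM + 0.1, log axis) for the 6 negative and 6 positive named genes with the smallest p; each line is a mouse, FL/FL blue and Lepr-Cre red. For Sptb the red lines start above the blue ones and end among them, for Apoe they start below and end among them, and for Ccnd2 and Mef2c they start together and end apart.

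**Figure D3:**
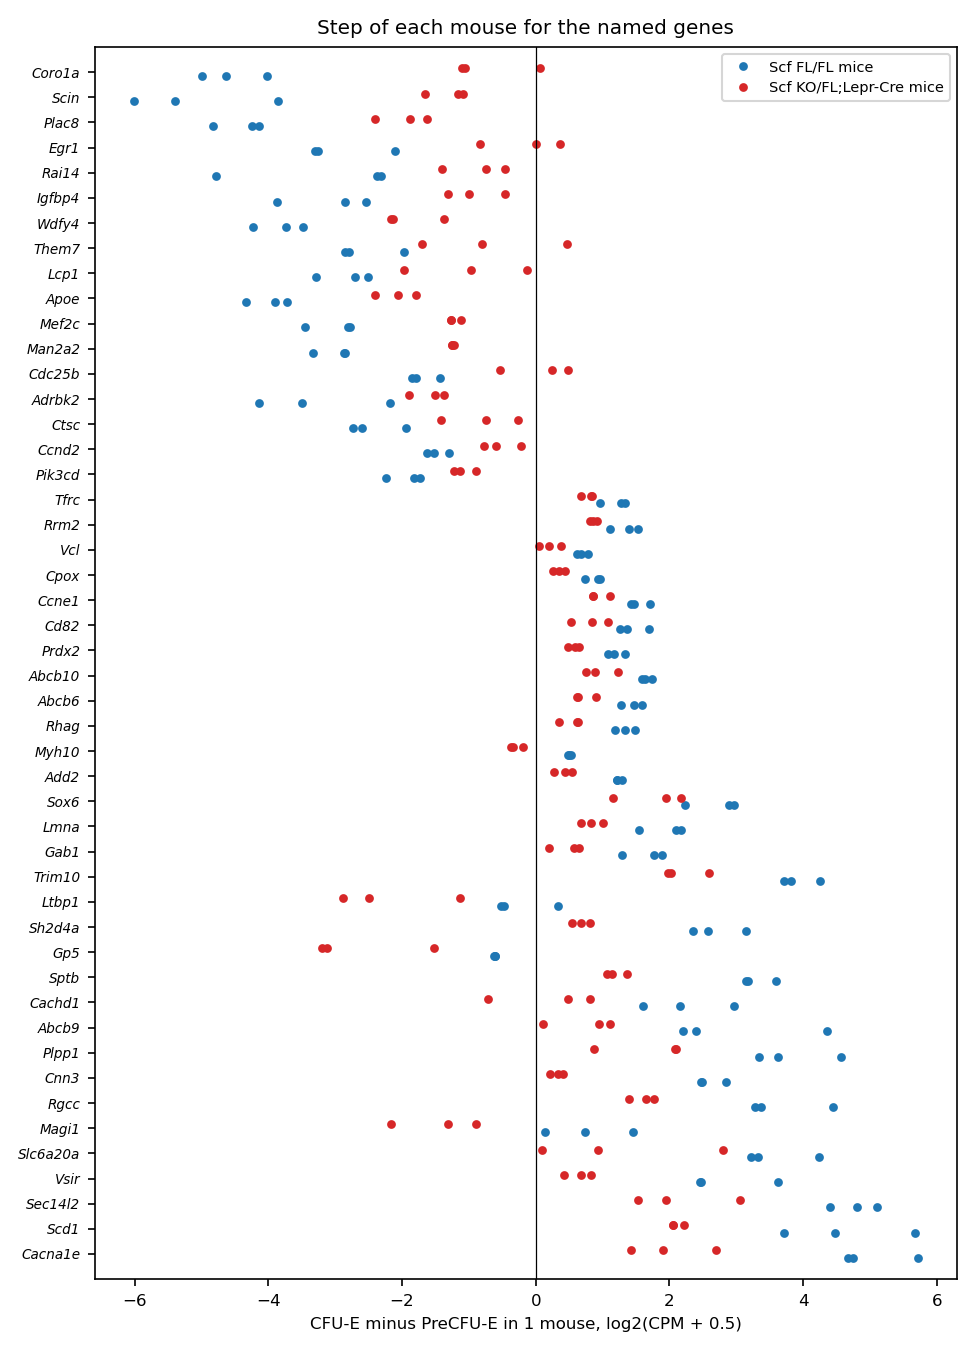
Step of each of the 3 mice per genotype, CFU-E minus PreCFU-E in log2(CPM + 0.5), for the 48 named genes with a call, ordered by the fitted difference. FL/FL points (blue) lie right of Lepr-Cre points (red) for negative differences at the bottom and left of them for positive ones at the top, and the points of the genotypes do not overlap in any of the 48. That is no result, since the 30 genes chosen by size had to have steps without overlap and all 48 were called on this contrast.

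Windows of 250 bases before the start of some of these genes are printed to set side by side genes with a negative difference (Sptb, Add2 and Trim10) and with a positive one (Apoe and Wdfy4), a choice made after their values were seen. They run 5′ to 3′ on the gene's strand and were taken from RefSeq on GRCm38.p6. Capitals mark matches, on either strand, to CCNCNCCC, the CACCC-like word, and to GATA words, which are AGATAA or AGATAG or the forms that begin with T, TGATAA or else TGATAG.
Sptb, chr12:76710548-76710797, - strand: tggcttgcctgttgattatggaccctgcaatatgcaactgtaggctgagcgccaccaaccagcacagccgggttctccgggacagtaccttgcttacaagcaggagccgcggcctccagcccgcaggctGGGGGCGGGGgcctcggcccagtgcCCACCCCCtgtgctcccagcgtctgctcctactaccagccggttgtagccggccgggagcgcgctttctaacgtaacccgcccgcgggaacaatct
Add2, chr6:86028431-86028680, + strand: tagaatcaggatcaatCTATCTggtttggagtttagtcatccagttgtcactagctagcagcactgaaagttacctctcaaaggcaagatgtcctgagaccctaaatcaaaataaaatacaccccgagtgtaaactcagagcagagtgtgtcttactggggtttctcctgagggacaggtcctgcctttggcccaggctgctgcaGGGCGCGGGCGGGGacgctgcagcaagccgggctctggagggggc
Trim10, chr17:36869324-36869573, + strand: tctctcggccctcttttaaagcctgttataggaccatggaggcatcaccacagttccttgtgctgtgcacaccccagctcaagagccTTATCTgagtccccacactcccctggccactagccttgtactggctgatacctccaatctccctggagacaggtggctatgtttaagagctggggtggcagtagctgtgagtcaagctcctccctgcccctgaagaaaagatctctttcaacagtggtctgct
Apoe, chr7:19699189-19699438, - strand: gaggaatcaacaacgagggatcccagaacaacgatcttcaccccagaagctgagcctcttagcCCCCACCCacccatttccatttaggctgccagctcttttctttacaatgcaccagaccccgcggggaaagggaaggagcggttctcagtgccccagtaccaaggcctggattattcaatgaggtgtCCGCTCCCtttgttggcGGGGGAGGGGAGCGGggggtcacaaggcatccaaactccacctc
Wdfy4, chr14:33185067-33185316, - strand: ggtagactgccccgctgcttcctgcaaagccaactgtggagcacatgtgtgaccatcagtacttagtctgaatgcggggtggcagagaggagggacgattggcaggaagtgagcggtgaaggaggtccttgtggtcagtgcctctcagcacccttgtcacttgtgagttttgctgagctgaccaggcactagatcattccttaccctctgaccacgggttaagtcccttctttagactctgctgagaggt
Sptb holds 3 CCNCNCCC matches, Add2 holds 2 with 1 GATA word, Trim10 holds 1 AGATAA, the Apoe window holds 5 CCNCNCCC matches and Wdfy4 holds none. Apoe has 3 windows, of which the farthest upstream is printed, and the other two hold 0 CCNCNCCC matches and 1 GATA word between them. Of 64 promoter windows of 41 named genes, 59.38% hold CCNCNCCC against 45.93% of 32851 windows of all genes. A GATA word is in 17.19% against 26.54%, AGATAA in 4.69% against 9.99%, and the STAT word TTCNNNGAA in 9.38% against 7.02%. These are descriptions of letters in short windows, and the 4-word GATA set and CCNCNCCC were chosen after the data were seen.

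In 88 genes the level was higher in Lepr-Cre mice at both stages, with medians of 0.78 in PreCFU-E and 0.69 in CFU-E, and 12 of them (13.6%) had a difference of steps past the test, against 1.96% of all tested genes. In 97 genes it was lower at both, with medians of -0.89 and -1.01, and 4 (4.12%) had a difference of steps. With the block by letter the sets held 238 and 195 genes, of which 18 (7.56%) and 5 (2.56%) had one. These counts use the same libraries as the difference of steps. Podxl, a sialomucin, is one of the 88: its genotype difference was 6.17 and 6.85, and its difference of steps was 0.76 (SE 0.24, adjusted p = 0.111). Myb, a transcription factor of proliferating progenitors, is one of the 97, with -1.13 and -0.95 and a difference of steps of 0.15 (SE 0.13, adjusted p = 0.771). Both were chosen after their values were seen. In 3 genes the genotype difference passed in opposite directions at the 2 stages, and in 11 with the block by letter.

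By edgeR and by DESeq2, 0 genes passed in the lists for ribosome biogenesis, amino acid stress, heat shock, glycolysis, cholesterol synthesis, BCL2 family, p53 targets, interferon response, glucocorticoid response and sort markers, with 6 to 27 tested genes each. Of these, 8 of 19 glycolysis genes and 5 of 27 interferon genes had an unadjusted p below 0.05, and at most 3 did in each of the others. On leaving out a mouse, 2 glycolysis and 2 interferon genes passed without FL/FL mouse C, 1 gene each for ribosome biogenesis and the BCL2 family without Lepr-Cre mouse B, and 1 for amino acid stress without Lepr-Cre mouse C, all positive. Their medians lay between -0.10 and 0.14. Stem and early progenitor genes had a median of 0.51 over 20 tested genes with 0 calls by either tool and 5 at an unadjusted p below 0.05, and 15 of the 20 differences were positive, against 46.2% over all tested genes. Without Lepr-Cre mouse B 1 of the 20 passed. By edgeR 1130 of all 10473 tested genes had an unadjusted p below 0.05, the share to set beside the counts of each list. DESeq2 called 165 genes.

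**Figure D4:**
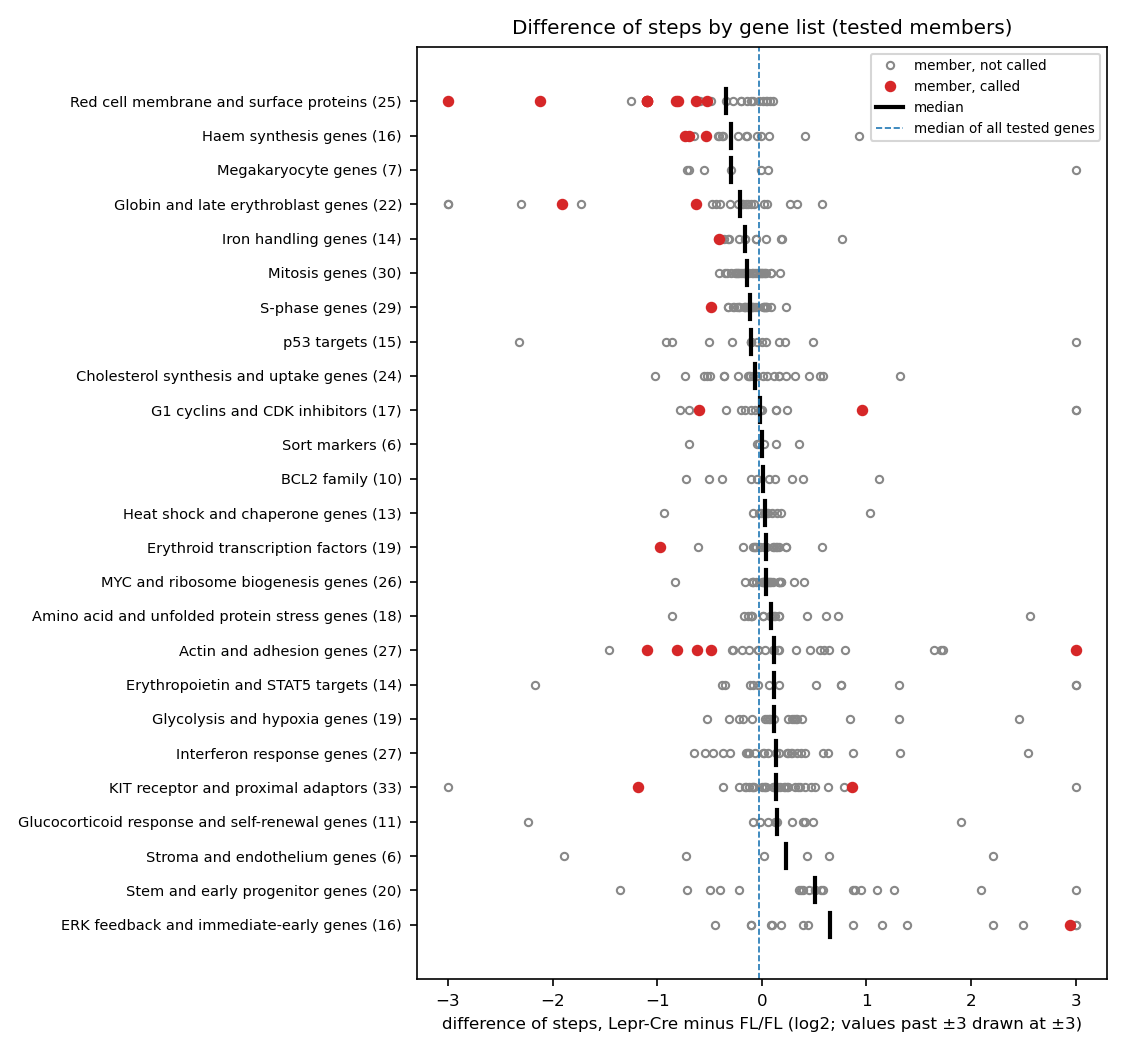
Difference of steps (Lepr-Cre minus FL/FL, log2, values past ±3 drawn at ±3) of each tested member of the gene lists with at least 6 tested members; filled red points passed the test, open points did not, bars are list medians and the dashed line is the median of all tested genes. The membrane list holds 9 filled points, all left of 0, and the haem list 3.

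KO/FL mice, which carry the null allele without Cre, give the comparison that leaves out the Cre deletion. A difference between their step and the FL/FL step was found in 0 of 10732 tested genes (0%) by edgeR on all 18 libraries, with 397 at an unadjusted p below 0.05 and 1 call by DESeq2. The Lepr-Cre step differed from the KO/FL step in 61 genes (0.568%), 25 positive (0.233%) and 36 negative (0.335%). Both comparisons share libraries with the main one. Without the mouse block the second gave 0, and it gave 28 without KO/FL mouse B, 29 without its C mouse, 31 without Lepr-Cre mouse A and 37 without Lepr-Cre mouse C.

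The values stand side by side for the leading genes. Sptb in KO/FL mice was at 148, 112 and 109.6 CPM in PreCFU-E and 675, 811 and 657 CPM in CFU-E. Its difference of steps was -0.76 (adjusted p = 0.0611) for KO/FL minus FL/FL and -1.36 (adjusted p = 8.98e-08) for Lepr-Cre minus KO/FL. Apoe in KO/FL mice was at 211, 373 and 366 CPM and 17.6, 29.96 and 25.8 CPM, with 0.33 (adjusted p = 1) and 1.58 (adjusted p = 5.24e-08). For Add2 the pair was -0.16 (adjusted p = 1) and -0.66 (adjusted p = 0.00122), for Ccnd2 0.32 (adjusted p = 1) and 0.63 (adjusted p = 0.00896), and for Cnn3 -0.57 (adjusted p = 1) and -1.77 (adjusted p = 0.00431). For Mef2c it was 0.92 (adjusted p = 1) and 0.94 (adjusted p = 0.141). The KO/FL step lay between the other steps in 140 of the 150 negative genes and 49 of the 55 positive ones, which were chosen for the distance of the outer steps.

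Genes chosen on KO/FL mice alone allow the steps of the other genotypes to be set side by side without that choice, and this selection was made after seeing the data. Of genes whose step passed the test in KO/FL mice, 1168 rose and 1171 fell. The median step of the 1168 was 0.522, 0.587 and 0.514 in FL/FL mice A, B and C and 0.303, 0.348 and 0.349 in the Lepr-Cre mice. The median of the 1171 was -0.742, -0.913 and -0.806 in FL/FL and -0.514, -0.552 and -0.589 in Lepr-Cre mice. All 3 Lepr-Cre mice had smaller medians than all 3 FL/FL mice in both directions. The fitted step was smaller in size in Lepr-Cre than FL/FL mice in 84% of the genes that rose and 74.6% of those that fell, against 60.7% of all tested genes.

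**Figure D5:**
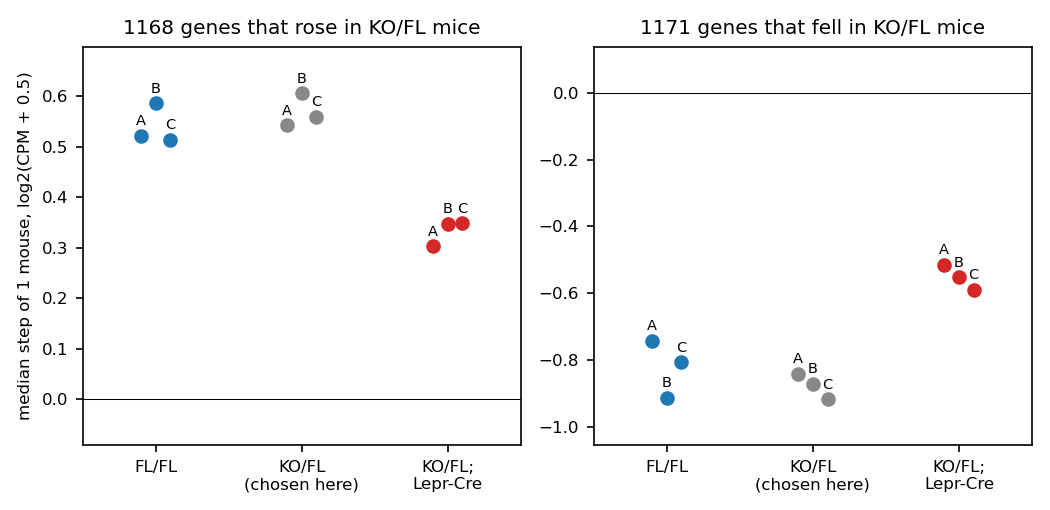
Median step of each mouse (log2(CPM + 0.5), letters mark mice) over the 1168 genes that rose and the 1171 that fell in KO/FL mice. Lepr-Cre mice lie at 0.303 to 0.349 on the left and -0.589 to -0.514 on the right, nearer 0 than the FL/FL mice in both; the KO/FL points chose the genes.

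In the whole transcriptome the step itself passed the test in 2668 genes in FL/FL mice (25.5%), 1402 up (13.4%) and 1266 down (12.1%), and in 1269 in Lepr-Cre mice (12.1%), 569 up (5.43%) and 700 down (6.68%). The FL/FL count was 1423 without mouse B, and the Lepr-Cre count was 717 without mouse C. Of the 150 negative genes, 82 rose in both genotypes, 54 rose past the test in FL/FL mice alone and 9 fell past the test in Lepr-Cre mice alone. Of the 55 positive genes, 41 fell in both and 13 in FL/FL mice alone.

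At the threshold, the last genes inside were Agtr1a (-1.56, adjusted p = 0.0490), Magi1 (-2.42, adjusted p = 0.0492) and Gpsm2 (-0.59, adjusted p = 0.0497), by edgeR. The first outside were Lmbr1 (-1.41, adjusted p = 0.0513), Slc35d1 (-0.78, adjusted p = 0.0513) and Stard3nl (-1.49, adjusted p = 0.0517). The call of Magi1 was lost without FL/FL mouse A or B or Lepr-Cre mouse A or B, with adjusted p of 0.197, 0.442, 0.101 and 0.106. Exons of several named genes overlap exons of a gene on the other strand in GENCODE M21. They include Sptb, Coro1a, Prdx2, Plpp1, Cpox, Vcl, Man2a2, Cdc25b, Add2, Gab1, Cnn3, Lcp1, Rai14, Slc6a20a and Abcb9. No source used here says whether counting used the strand.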

How the data were processed

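RNA-seq of sorted PreCFU-E and CFU-E was analysed from 18 libraries, 12 of them in the main contrast. The deposited read counts per gene symbol were not normalized, per the file headers and values. The submitters' processing notes name STAR 2.5.2b, HTSeq and the mouse build mm10. For HTSeq the version, strand setting and annotation were not given in the sources used here. An RPKM table deposited by the authors served as an alternative only. The labels head the protocol as nuclear extraction, while its text describes sorted cells and total RNA.

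Counts were analysed with edgeR 4.0.16 in R 4.3.3 (TMM scaling, filterByExpr with a minimum count of 10 and a minimum total of 15, robust quasi-likelihood fit, 4 residual degrees of freedom). The design held the 6 mice as block and a step for each genotype. Genotype differences at a stage were fitted without a block. KO/FL contrasts were fitted on 18 libraries. SE is the log2 difference divided by the square root of F. Adjusted p are Benjamini-Hochberg values over all tested genes, two-sided, with a threshold of 0.05. Per-mouse steps used log2(CPM + 0.5). The fit and contrast were also run on counts simulated from a fit to these libraries, and the outcome of that run is not given here.

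Mouse identity comes from the labels' sample numbers, which give each mouse both cell types. Deviations from the group means correlated within mice at r = 0.128 to 0.209. Totals of 5460920 to 9389122 counts limit what can be seen in low genes.

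The named genes were Kit, Kitl, the 15 largest positive and 15 largest negative differences among called genes whose mean reached 5 CPM and whose steps did not overlap, leaving out predicted models, and up to 4 called members of each of 29 lists. One gene that this rule names is not reported here. Members and lists were chosen with earlier results of these data known. Positions are from GENCODE M21 on GRCm38. Alternatives were DESeq2 1.42.0, its size factors, other filters, blocks, limma 3.58.1 on RPKM and on counts with voom, and leaving out each mouse.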

Additional observations from a re-analysis of the deposited data

Results flagged for a closer look

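The genotype difference changed with the stage in 48 named genes, by the test of the difference of steps itself (edgeR, mouse as block). Each value is the Lepr-Cre step minus the FL/FL step on the log2 scale. Among genes that kept the call on leaving out each mouse, the negative differences were Cacna1e (-3.50), Scd1 (-2.96), Sec14l2 (-2.75), Rgcc (-2.41), Cnn3 (-2.34), Plpp1 (-2.30), Sptb (-2.12), Gp5 (-2.11), Sh2d4a (-2.01), Trim10 (-1.91), Gab1 (-1.18), Lmna (-1.10), Add2 (-0.82), Myh10 (-0.81), Rhag (-0.80), Abcb10 (-0.70) and Prdx2 (-0.63). The positive ones were Coro1a (7.04), Igfbp4 (2.22), Wdfy4 (2.0), Apoe (1.91), Mef2c (1.87), Man2a2 (1.85), Cdc25b (1.83) and Ccnd2 (0.96). The fitted value of Coro1a rests on 1 count in the FL/FL CFU-E libraries and is no fold change.

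The other named genes lost the call without at least 1 mouse. Vsir was at -2.60 and lost its call without FL/FL mouse A, B or C or Lepr-Cre mouse A or C, where the adjusted p was 0.0728, 0.124, 0.172, 0.0967 and 0.106. Slc6a20a was at -2.50 and lost its call without FL/FL mouse A or B or Lepr-Cre mouse A or C, where the adjusted p was 0.137, 0.079, 0.135 and 0.125. Magi1 was at -2.42 and lost its call without FL/FL mouse A or B or Lepr-Cre mouse A or B, where the adjusted p was 0.197, 0.442, 0.101 and 0.106. Abcb9 was at -2.26 and lost its call without FL/FL mouse B or Lepr-Cre mouse A or C, where the adjusted p was 0.346, 0.115 and 0.0635. Cachd1 was at -2.20 and lost its call without FL/FL mouse A or B or Lepr-Cre mouse B, where the adjusted p was 0.058, 0.262 and 0.0967. Ltbp1 was at -2.0 and lost its call without FL/FL mouse A or Lepr-Cre mouse C, where the adjusted p was 0.119 and 0.0761. Sox6 was at -0.97 and lost its call without FL/FL mouse A or B or Lepr-Cre mouse A, where the adjusted p was 0.189, 0.244 and 0.192. Abcb6 was at -0.74 and lost its call without FL/FL mouse A, B or C or Lepr-Cre mouse A or C, where the adjusted p was 0.0757, 0.0511, 0.0807, 0.0765 and 0.107. Cd82 was at -0.62 and lost its call without FL/FL mouse B or Lepr-Cre mouse A, where the adjusted p was 0.319 and 0.161. Ccne1 was at -0.60 and lost its call without FL/FL mouse B, where the adjusted p was 0.179. Cpox was at -0.53 and lost its call without FL/FL mouse B, where the adjusted p was 0.079. Vcl was at -0.49 and lost its call without FL/FL mouse A or B or Lepr-Cre mouse A or B, where the adjusted p was 0.0577, 0.285, 0.054 and 0.128. Rrm2 was at -0.49 and lost its call without FL/FL mouse B or C or Lepr-Cre mouse C, where the adjusted p was 0.231, 0.122 and 0.13. Tfrc was at -0.41 and lost its call without FL/FL mouse B or C or Lepr-Cre mouse A or C, where the adjusted p was 0.558, 0.0938, 0.138 and 0.143. Pik3cd was at 0.86 and lost its call without FL/FL mouse A or B or Lepr-Cre mouse A, where the adjusted p was 0.141, 0.0618 and 0.102. Ctsc was at 1.71 and lost its call without FL/FL mouse A, B or C or Lepr-Cre mouse C, where the adjusted p was 0.197, 0.0795, 0.124 and 0.229. Adrbk2 was at 1.74 and lost its call without FL/FL mouse B or C or Lepr-Cre mouse A or C, where the adjusted p was 0.159, 0.172, 0.0804 and 0.104. Lcp1 was at 1.94 and lost its call without FL/FL mouse B or Lepr-Cre mouse A, where the adjusted p was 0.148 and 0.166. Them7 was at 1.97 and lost its call without FL/FL mouse B or C or Lepr-Cre mouse A or B, where the adjusted p was 0.25, 0.123, 0.0708 and 0.177. Rai14 was at 2.37 and lost its call without FL/FL mouse B or Lepr-Cre mouse B or C, where the adjusted p was 0.428, 0.0511 and 0.13. Egr1 was at 2.95 and lost its call without FL/FL mouse A or B or Lepr-Cre mouse A, where the adjusted p was 0.0515, 0.428 and 0.108. Plac8 was at 3.05 and lost its call without FL/FL mouse B, where the adjusted p was 0.0751. Scin was at 3.92 and lost its call without FL/FL mouse B or C or Lepr-Cre mouse A or C, where the adjusted p was 0.255, 0.0986, 0.186 and 0.16.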

How the results depend on the processing

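No named gene reversed its direction in any alternative. The count of 205 genes with a difference of steps became 47 without the replicate block on 12 libraries and 38 without it on 18, where 39.5% of the calls were positive against 26.8%. With limma and the mouse block it became 1 on log2(RPKM + 1) and 12 on log2(RPKM + 0.1), while limma-voom on the counts gave 195, of which 168 were among the 205. The cause was not tested. The replicate block by letter gave 145, a female term by stage beside the mouse block 255, DESeq2 165, its size factors 191, no filter 249 and a minimum of 5 CPM 195. Leaving out each mouse gave 81 to 246, lowest without FL/FL B. The count of genes with a step ran from 1423 to 3017 in FL/FL mice and from 717 to 1320 in Lepr-Cre mice on leaving out a mouse, and the latter was 689 without the replicate block. Genotype differences ran from 294 to 388 genes in PreCFU-E and from 243 to 534 in CFU-E, and with a replicate block by letter they were 1055 and 1121. Of the positive genes, 28 were then higher in CFU-E and 16 lower in PreCFU-E with no call at the other stage, against 17 and 10. For KO/FL against FL/FL, 1 gene passed with DESeq2 size factors, 2 with no filter, 1 with DESeq2 and 0 to 3 on leaving out a mouse. For Lepr-Cre against KO/FL, 97 passed with no filter, 0 without the replicate block and 28 to 65 on leaving out a mouse. Steps that do not overlap made up 15.8% of genes, and 16.8% on log2(RPKM + 1).

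Of the 48 named genes with a call, 25 kept it on leaving out each mouse, 18 without the replicate block, 44 with DESeq2 and 33 with voom. On RPKM 0 and 6 kept it at the 2 offsets. Sptb, Apoe, Sh2d4a, Lmna, Wdfy4, Add2, Mef2c, Cnn3, Coro1a, Gab1, Sec14l2, Man2a2 and Plpp1 kept it in every alternative run other than RPKM. With 3 mice per genotype, and levels of a few CPM or less in 1 stage for genes such as Coro1a, Scin and Slc4a1, fitted differences of low genes are imprecise.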
